A study of Homo sapiens with 16 samples.

Results

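The genes described here are the 6 inhibitors of cyclin-dependent kinases outside CDKN1A (CDKN1B, CDKN1C, CDKN2A, CDKN2B, CDKN2C and CDKN2D) and the cyclins that act in G1 outside CCND3 (CCND1, CCND2, CCNE1 and CCNE2). They were chosen by name, 10 of the 19356 protein-coding genes to which the transcripts could be assigned, and the level of each gene is the sum of the TPM (a share of all transcripts, scaled for transcript length and library size) of its transcripts. The 10 genes had 56 transcripts in the table. All 16 libraries come from the BJ human fibroblast model, an established fibroblast line, in 4 stages: primary BJ cells, cells immortalized with ectopic telomerase (BJ hTERT+), cells transformed by adding Simian virus 40 Large-T (BJ hTERT+ SV40+), and metastasizing cells that in addition carry an oncogenic H-Ras. Each stage was grown for 6 passages at atmospheric oxygen or at 3% oxygen (moderate hypoxia), and each of the 8 groups has 2 libraries, a and b, made from duplicate plates. Each stage is a single line that carries all the elements of the stage before it. P-values thus measure the spread between plates of a line, which may be technical, pooled over the 8 groups for each gene. RNA was poly(A)-selected from bulk cultures, in which fewer cells expressing a gene and less RNA per cell cannot be told apart.

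Entry into S phase is set by kinases whose activity needs a cyclin partner. D-type cyclins bind CDK4 and CDK6, E-type cyclins bind CDK2, and both kinds of complex phosphorylate the RB family of proteins, which otherwise hold back E2F transcription factors. INK4 proteins (p16 from CDKN2A, p15 from CDKN2B, p18 from CDKN2C and p19 from CDKN2D) bind CDK4 and CDK6, while CIP/KIP proteins (p27 from CDKN1B and p57 from CDKN1C) bind cyclin-CDK complexes, mainly those of CDK2. CDKN2A also encodes ARF, a protein unrelated to p16 in sequence that acts on the MDM2-p53 axis. In cultured fibroblasts p16 is a known marker of senescence, and Large-T is known to bind both RB proteins and p53.

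The deposited table gives no read counts, so the depth of the libraries is unknown, and between 11654 and 11943 genes per library were above 1 TPM. All 8 fibroblast markers checked, COL1A1, DCN and VIM among them, were above 1 TPM in every library (summed level 3762 to 17243 TPM), against a summed level of 3.61 TPM or less for 4 epithelial markers, 3.73 TPM or less for 3 haematopoietic markers and 0.547 TPM or less for 2 endothelial markers. TERT was at or below 0.543 TPM in the primary libraries and lay between 31.6 and 192 TPM in the later stages. HRAS did not set the metastasizing libraries apart from the transformed ones at atmospheric oxygen (94.6 and 78.1 against 119.8 and 99.0 TPM) and was 143.5 and 772 TPM in metastasizing cells at 3% oxygen, so the stage names of these libraries rest on their labels. The 2 libraries of metastasizing cells at 3% oxygen differed from each other more than any other pair: 11% of their expressed genes were over 2-fold apart, against 1.83% to 4.08% in the other 7 groups.

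CDKN2A lies on the minus strand of chromosome 9 (GRCh37, positions 21967751 to 21995300) and has alternative first exons joined to a shared second exon. A transcript that begins with exon 1alpha (coding part chr9:21974677-21974826) encodes p16, and a transcript that begins with exon 1beta (coding part chr9:21994138-21994330) encodes ARF. The coding parts of both exons are shown, since they alone tell the forms apart. They were read 5′ to 3′ on the gene's strand from the GRCh37 genome by the GENCODE 44 annotation, with the start codon in capitals.
exon 1alpha: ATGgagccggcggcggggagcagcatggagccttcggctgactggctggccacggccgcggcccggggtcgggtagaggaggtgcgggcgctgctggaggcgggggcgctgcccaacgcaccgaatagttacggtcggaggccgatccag
exon 1beta: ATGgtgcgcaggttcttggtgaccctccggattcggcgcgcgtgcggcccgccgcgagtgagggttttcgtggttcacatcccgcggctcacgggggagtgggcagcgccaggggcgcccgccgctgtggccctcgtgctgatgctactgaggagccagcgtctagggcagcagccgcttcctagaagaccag
Of the 14 CDKN2A transcripts in the table, 4 contain exon 1alpha, 2 contain exon 1beta and 8 contain neither. Among the latter is CDKN2A-212, which begins just before the shared second exon.

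CDKN2A ranged from 0 to 151 TPM and was the highest of the 6 inhibitors in the 8 libraries with Large-T. In primary cells at atmospheric oxygen it was 8.30 and 4.89 TPM, and at 3% oxygen 0.461 and 2.05 TPM. In immortalized cells it was 0.132 and 0 TPM at atmospheric oxygen and was listed at 0 in both libraries at 3% oxygen. All 4 primary libraries were above all 4 immortalized libraries. In transformed cells it was 85.7 and 82.5 TPM at atmospheric oxygen and 85.2 and 97.4 TPM at 3% oxygen. In metastasizing cells it was 151 and 148 TPM at atmospheric oxygen and 74.9 and 99.2 TPM at 3% oxygen. The 8 libraries with Large-T were thus all above the 8 without it, with no overlap, and metastasizing cells at atmospheric oxygen were highest, while transformed cells at both oxygen levels and metastasizing cells at 3% oxygen overlapped.

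Differences were tested with limma on log2(TPM + 0.5), in a single fit of the 8 groups, and a gene was called at a Benjamini-Hochberg adjusted p below 0.01 and a difference over 1 on that scale, if its mean reached 1 TPM in a group compared. On this scale CDKN2A fell by 2.14 (SE 0.371, adjusted p = 0.00215) in primary cells at 3% oxygen, a call that was lost without library a at atmospheric oxygen (-1.79, adjusted p = 0.0258). From primary to immortalized cells at atmospheric oxygen it fell by 3.62 (SE 0.371, adjusted p = 3.08e-05), with a size that depends on the value added before the logarithm (-5.41 to -2.80 over the alternatives tried). At 3% oxygen the same step passed (adjusted p = 0.00673) against a group listed at 0, from levels near 1 TPM, and did not pass without library a (adjusted p = 0.0395) or library b (adjusted p = 0.0385) of the immortalized cells, and without library b of the primary cells its mean was under 1 TPM. The step from immortalized to transformed cells was the largest difference of any member, 7.23 (SE 0.371, adjusted p = 9.67e-08) at atmospheric oxygen, and at 3% oxygen it started from a group listed at 0 (adjusted p = 1.13e-07). The level in transformed cells did not pass between oxygen levels (difference 0.12, 95% interval -0.70 to 0.93). In metastasizing cells it was lower at 3% oxygen in both libraries without passing (difference -0.79, 95% interval -1.61 to 0.02, adjusted p = 0.133).

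Seen by transcript, CDKN2A-201, the main p16 transcript, and CDKN2A-212 held between 88.3% and 95.4% of the CDKN2A signal in the 8 transformed and metastasizing libraries. In the other libraries, where the sum was low, they held from none of it to 91.9%. CDKN2A-201 was 2.25 and 1.76 TPM in primary cells at atmospheric oxygen, and was listed at 0 in the other 2 primary and in all 4 immortalized libraries. It was 39.8 and 33.2 TPM in transformed cells at atmospheric oxygen and 28.0 and 40.1 TPM at 3% oxygen. In metastasizing cells it was 70.0 and 65.2 TPM at atmospheric oxygen and 33.7 and 36.6 TPM at 3% oxygen. CDKN2A-212 had a like pattern, from 0 in all immortalized libraries to 72.4 and 73.6 TPM in metastasizing cells at atmospheric oxygen. None of the other 12 transcripts exceeded 3.30 TPM in any library, and 1 of them stayed below 0.1 TPM throughout. The 2 ARF transcripts of the annotation summed to 0 in all 8 primary and immortalized libraries and to between 0 and 0.984 TPM in the others, so their mean reached 1 TPM in no group and they were not tested. Other ARF transcripts may be among the deposited ones that matched no gene, so these values are not the level of ARF and do not show it to be absent from primary cells.

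The p16 transcripts summed to 2.25 and 2.08 TPM in primary cells at atmospheric oxygen and to 0.157 and 0 TPM at 3% oxygen, a difference that was called (-2.22, SE 0.209, adjusted p = 6.30e-05). They were called lower in immortalized than primary cells at atmospheric oxygen (-2.24, adjusted p = 1.60e-05) and higher in transformed than immortalized cells (6.05 at atmospheric oxygen, adjusted p = 7.87e-09). In metastasizing cells they were 71.7 and 66.3 TPM at atmospheric oxygen and 34.2 and 37.4 TPM at 3% oxygen, with no overlap but a difference of -0.94 (adjusted p = 0.00752), just under the size required. Reads in the shared exons are split between transcripts by the authors' quantification over its whole index, of which 28800 transcripts matched no gene of the annotation used here, so the CDKN2A sum may be too low, and no p16 to ARF ratio was drawn.

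**Figure D1:**
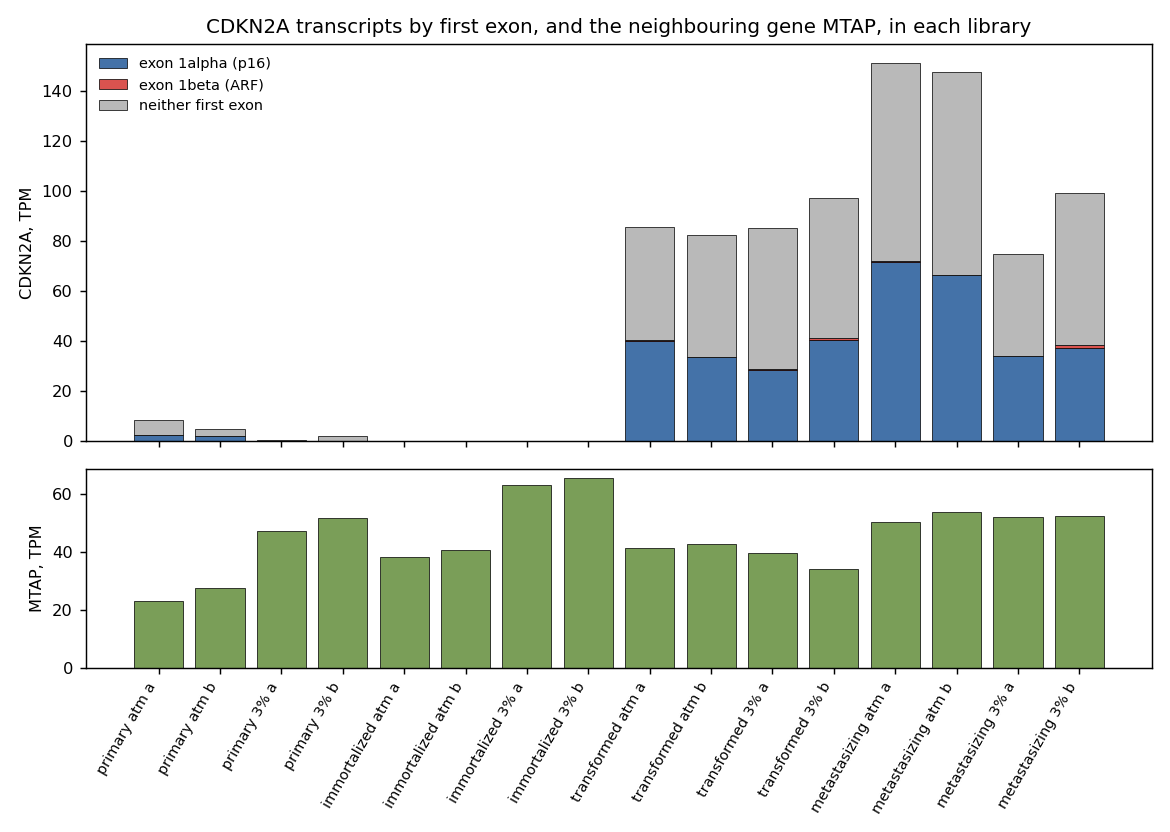
Upper panel: TPM of CDKN2A in each of the 16 libraries, split into transcripts with exon 1alpha (blue), with exon 1beta (red) and with neither (grey). Lower panel: TPM of the neighbouring gene MTAP in the same libraries, which stayed between 23.0 and 65.3 TPM while CDKN2A ranged from 0 to 151 TPM.

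MTAP, the methylthioadenosine phosphorylase gene that neighbours CDKN2A on 9p21, was 38.2 and 40.6 TPM in immortalized cells at atmospheric oxygen and 63.1 and 65.3 TPM at 3% oxygen, higher than the 23.0 and 27.4 TPM of primary cells at atmospheric oxygen. Transcripts of this neighbour were thus present in the libraries in which CDKN2A and CDKN2B were listed at or near 0.

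CDKN2B, which encodes p15 and lies next to CDKN2A (chromosome 9, 22002902 to 22009304), was lower than CDKN2A in transformed and metastasizing cells and followed the same order of groups. It was 3.90 and 4.17 TPM in primary cells at atmospheric oxygen and 2.16 and 2.49 TPM at 3% oxygen. In immortalized cells it was 0.0149 and 0 TPM at atmospheric oxygen and was listed at 0 in both libraries at 3% oxygen. It was 7.55 and 5.98 TPM in transformed cells at atmospheric oxygen and 11.9 TPM in both libraries at 3% oxygen. As with CDKN2A, the 8 libraries of cells with Large-T were above all others. In metastasizing cells it was 23.9 and 21.5 TPM at atmospheric oxygen and 4.54 and 11.4 TPM at 3% oxygen.

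The fall of CDKN2B from primary to immortalized cells was called at both oxygen levels (-3.16, SE 0.310, adjusted p = 2.28e-05 at atmospheric oxygen, and adjusted p = 0.00016 against the group listed at 0 at 3% oxygen). The rise in transformed cells was called as well (3.83, SE 0.310, adjusted p = 2.12e-06 at atmospheric oxygen, and adjusted p = 9.83e-07 at 3% oxygen). From transformed to metastasizing cells it rose at atmospheric oxygen (1.68, SE 0.310, adjusted p = 0.00389), a call lost without any of the 4 libraries compared (1.52 to 1.84, adjusted p = 0.0185 to 0.0418). At 3% oxygen the same step gave -0.67 (95% interval -1.36 to 0.01). Between oxygen levels CDKN2B was called in metastasizing cells only, 1.58 lower at 3% oxygen (SE 0.310, adjusted p = 0.00384). That call was lost without library a (adjusted p = 0.032) or b (adjusted p = 0.0212) at atmospheric oxygen, and without library a at 3% oxygen the difference was -0.95. About equal parts of the CDKN2B level were on the coding transcript CDKN2B-201 and on CDKN2B-203, annotated as a retained intron, which carried 49.5% of the sum over the 16 libraries.

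CDKN2C, which encodes p18 (chromosome 1, 51426417 to 51440306), and CDKN2D, which encodes p19 (chromosome 19, 10677136 to 10679735), were expressed in every library. CDKN2C was 62.7 and 65.5 TPM in primary cells at atmospheric oxygen and 66.1 and 69.5 TPM at 3% oxygen. In immortalized cells it was 39.2 and 47.6 TPM at atmospheric oxygen and 48.9 and 49.0 TPM at 3% oxygen, below every primary library. Transformed cells had 81.3 and 80.3 TPM at atmospheric oxygen and 60.6 and 59.8 TPM at 3% oxygen. Metastasizing cells had 74.5 and 73.2 TPM at atmospheric oxygen and 16.8 and 35.5 TPM at 3% oxygen, the lowest group of the 8. In that stage CDKN2C fell by 1.58 at 3% oxygen (SE 0.244, adjusted p = 0.001), which just missed the threshold without library a at atmospheric oxygen (-1.56, adjusted p = 0.0104). Without library a at 3% oxygen, the lower of that pair, the difference was -1.05 and still called (adjusted p = 0.000116). It fell by 1.28 from transformed to metastasizing cells at 3% oxygen (SE 0.244, adjusted p = 0.00352), and without library a of the metastasizing cells this difference was -0.76, while without library a or b of the transformed cells the adjusted p was 0.018 or 0.0219. No other difference of CDKN2C was called.

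CDKN2D was highest in primary cells, with 23.3 and 31.3 TPM at atmospheric oxygen and 47.3 and 39.7 TPM at 3% oxygen. In the 12 later libraries it was between 9.79 and 20.99 TPM, and the immortalized, transformed and metastasizing groups overlapped with their neighbours in the order of levels, apart from metastasizing cells at 3% oxygen (9.79 and 14.1 TPM), which were lowest. Its higher level in primary cells at 3% oxygen did not pass (0.67, 95% interval 0.21 to 1.13, adjusted p = 0.036). The only call was the fall from primary to immortalized cells at 3% oxygen (-1.29, SE 0.209, adjusted p = 0.000983), which was lost without library a of the primary cells (-1.17, adjusted p = 0.0123) or library b of the immortalized cells (-1.12, adjusted p = 0.0138).

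CDKN1B, which encodes p27 (chromosome 12, 12838432 to 12875303), was similar in all stages up to the transformed one at atmospheric oxygen. It was 31.4 and 37.0 TPM in primary cells at atmospheric oxygen and 31.2 and 33.5 TPM at 3% oxygen. Immortalized cells had 38.5 and 41.0 TPM at atmospheric oxygen and 35.7 and 35.6 TPM at 3% oxygen. None of these groups was called different from another in the comparisons made. In transformed cells it was 39.5 and 38.6 TPM at atmospheric oxygen and 54.4 and 57.1 TPM at 3% oxygen. In metastasizing cells the order of the oxygen levels was the opposite, with 52.9 and 48.9 TPM at atmospheric oxygen and 14.0 and 31.2 TPM at 3% oxygen. The difference in metastasizing cells was called (-1.26, SE 0.260, adjusted p = 0.00485), that in transformed cells was not (0.51, 95% interval -0.06 to 1.08), and the difference between them was called (-1.77, SE 0.368, adjusted p = 0.00576). Each of these tests used the spread of CDKN1B pooled over all 8 groups, in which the metastasizing pair at 3% oxygen was far apart. The interval in transformed cells thus does not rest on the plates of that stage alone. From transformed to metastasizing cells at 3% oxygen CDKN1B fell by 1.39 (SE 0.260, adjusted p = 0.00327).

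Library a of the metastasizing cells at 3% oxygen, the lower of that pair for CDKN1B, bore on these sizes. Without it the difference between oxygen levels was -0.70 and the step from transformed cells -0.83. The call between oxygen levels was also lost without library a (adjusted p = 0.0367) or b (adjusted p = 0.0252) at atmospheric oxygen, and the step without library a (adjusted p = 0.0145) or b (adjusted p = 0.0229) of the transformed cells. The difference of the oxygen responses missed the threshold when any of the 4 transformed libraries or either metastasizing library at atmospheric oxygen was left out (-1.83 to -1.71, adjusted p = 0.015 to 0.0229). The sign was the same in each of these settings.

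CDKN1C, which encodes p57 (chromosome 11, 2904443 to 2907005), reached a mean of 1 TPM in 2 groups only. It was 1.97 and 2.03 TPM in primary cells at atmospheric oxygen and 0.0958 and 0.252 TPM at 3% oxygen. In transformed cells the order was the reverse, 0.414 and 0.224 TPM at atmospheric oxygen and 1.74 and 1.77 TPM at 3% oxygen. The groups did not overlap in either stage. In immortalized cells it was 0.697 and 0.228 TPM at atmospheric oxygen and 0 and 0.0587 TPM at 3% oxygen. In metastasizing cells it was 0.139 and 0.0760 TPM at atmospheric oxygen and 0.417 and 0.504 TPM at 3% oxygen. CDKN1C thus stayed near or below 2 TPM in every library, and folds of such levels are understated on the log2(TPM + 0.5) scale. In primary cells at atmospheric oxygen library a held CDKN1C-201 only. Library b held 0.570 TPM of CDKN1C-201, 0.795 TPM of CDKN1C-204 and 0.662 TPM of CDKN1C-205, annotated as a retained intron.

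By the filter of 1 TPM, CDKN1C was tested only where primary cells at atmospheric oxygen or transformed cells at 3% oxygen took part. Its oxygen differences in immortalized and metastasizing cells, also without overlap, were thus not tested, and no lack of response there can be read from the calls. CDKN1C was called lower at 3% oxygen in primary cells (-1.90, SE 0.254, adjusted p = 0.000511) and higher in transformed cells (1.47, SE 0.254, adjusted p = 0.00148). The latter call was lost without library b at atmospheric oxygen (1.30, adjusted p = 0.0188) and, narrowly, without library b at 3% oxygen (adjusted p = 0.01005). The response in transformed cells exceeded that in immortalized cells by 2.29 (SE 0.359, adjusted p = 0.000907). Among the steps, it was called lower from primary to immortalized cells at atmospheric oxygen (-1.42, SE 0.254, adjusted p = 0.00131), a call lost without library b of the primary cells (adjusted p = 0.0108) or of the immortalized cells (-1.06, adjusted p = 0.0135). At 3% oxygen it was called higher from immortalized to transformed cells (2.09, SE 0.254, adjusted p = 7.61e-05) and lower from transformed to metastasizing cells (-1.23, SE 0.254, adjusted p = 0.00534). The last call was lost without library a (adjusted p = 0.0227) or b (adjusted p = 0.0297) of the transformed cells or library a of the metastasizing cells (adjusted p = 0.0207).

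**Figure D2:**
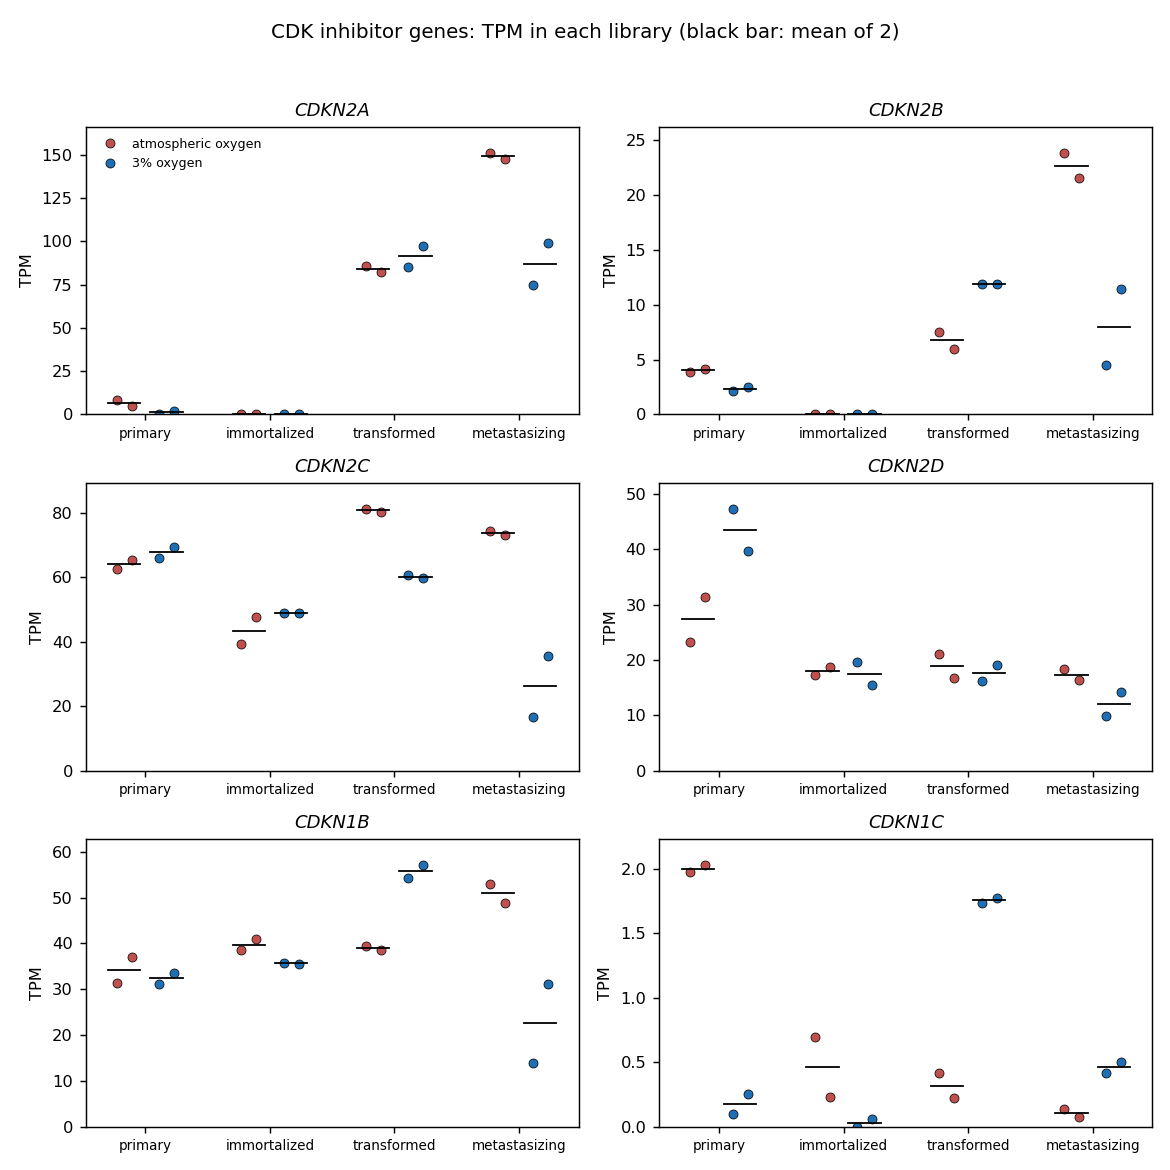
TPM of the 6 CDK inhibitor genes in each library, by stage, at atmospheric oxygen (red) and 3% oxygen (blue). Points are libraries and black bars the means of 2. CDKN2A and CDKN2B were at or near 0 in immortalized cells and highest in metastasizing cells at atmospheric oxygen, and the metastasizing libraries at 3% oxygen lay far apart for CDKN1B, CDKN2B and CDKN2C.

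CCND1, a D-type cyclin (chromosome 11, 69455924 to 69469242), had the highest level of the 10 genes in primary and immortalized cells. Its range in TPM was the widest among the 4 cyclins. CCND3, a D-type cyclin outside the 10 genes, was 58.3 and 50.2 TPM in metastasizing cells at atmospheric oxygen, above CCND1. In all other libraries CCND3 was below CCND1. CCND1 was 326 and 386 TPM in primary cells at atmospheric oxygen and 702 and 605 TPM at 3% oxygen. Immortalized cells had 198 and 242 TPM at atmospheric oxygen and 259 and 253 TPM at 3% oxygen. Transformed cells had 80.8 and 82.9 TPM at atmospheric oxygen and 66.5 and 63.1 TPM at 3% oxygen. All 4 transformed libraries lay below every primary and immortalized library. In metastasizing cells it was 50.5 and 49.3 TPM at atmospheric oxygen and 147 and 107 TPM at 3% oxygen, and no neighbours in the order of the 8 groups overlapped.

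CCND1 was lower after each step up to the transformed stage. The first was called at 3% oxygen (-1.35, SE 0.148, adjusted p = 6.44e-05), while at atmospheric oxygen it was -0.69 (adjusted p = 0.00383), under the size required. The step from immortalized to transformed cells was called at both oxygen levels (-1.42, adjusted p = 1.33e-05 at atmospheric oxygen, and -1.97, adjusted p = 2.10e-06 at 3% oxygen). The step to metastasizing cells had opposite signs at the 2 oxygen levels, -0.71 (adjusted p = 0.00732) at atmospheric oxygen and 0.95 (adjusted p = 0.00113) at 3% oxygen, neither over 1. CCND1 was called higher at 3% oxygen in metastasizing cells (1.32, SE 0.148, adjusted p = 0.000148). In primary cells the difference was 0.88 (adjusted p = 0.00181), and in transformed cells it was -0.33 (95% interval -0.66 to -0.01, adjusted p = 0.101). The response in metastasizing cells exceeded that in transformed cells by 1.66 (SE 0.209, adjusted p = 0.000397). The transcript CCND1-201 carried 93.5% of the sum over the 16 libraries. The gene LTO1 on the opposite strand shares 497 exonic bases with CCND1 and was 14.7 to 24.5 TPM, below CCND1 in every library.

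CCND2, another D-type cyclin (chromosome 12, 4378937 to 4414519), was 1.14 and 0.753 TPM in primary cells at atmospheric oxygen and 0.103 and 0.297 TPM at 3% oxygen. It was at or below 0.0474 TPM in all 12 later libraries, and was listed at 0 in both transformed libraries at atmospheric oxygen. Its mean reached 1 TPM in no group, so it was not tested.

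CCNE1 (chromosome 19, 30302898 to 30315219), a cyclin of CDK2, was 11.7 and 11.4 TPM in primary cells at atmospheric oxygen and 24.0 and 24.5 TPM at 3% oxygen. In immortalized cells it was 4.50 and 3.88 TPM at atmospheric oxygen and 8.26 and 7.36 TPM at 3% oxygen. In both stages the libraries at 3% oxygen were above those at atmospheric oxygen. In transformed cells it was 10.2 and 9.53 TPM at atmospheric oxygen and 8.34 and 9.99 TPM at 3% oxygen, and in metastasizing cells 11.4 and 13.4 TPM and 15.6 and 13.3 TPM, with overlap between the oxygen levels in both. The rise in primary cells was called (1.04, SE 0.148, adjusted p = 0.000714), just over the size required. That in immortalized cells (0.83, adjusted p = 0.0025) was not over 1. After median-ratio rescaling the rise in primary cells was 0.92 and after quantile normalization 0.95, below that size. CCNE1 was called lower in immortalized than primary cells at both oxygen levels (-1.36, adjusted p = 4.46e-05, and -1.58, adjusted p = 2.13e-05), and higher in transformed than immortalized cells at atmospheric oxygen (1.15, adjusted p = 6.50e-05). The latter was 0.94 after median-ratio rescaling. At 3% oxygen this step gave 0.21 (95% interval -0.11 to 0.54).

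CCNE2, the second E-type cyclin (chromosome 8), was higher at 3% oxygen in every stage, with no overlap between libraries. It was 16.3 and 16.2 TPM in primary cells at atmospheric oxygen and 32.8 and 32.9 TPM at 3% oxygen. In immortalized cells it was 14.7 and 12.4 TPM and rose to 34.5 and 34.7 TPM. In transformed cells it was 27.1 and 26.0 TPM at atmospheric oxygen and 36.5 and 39.1 TPM at 3% oxygen, and in metastasizing cells 24.2 and 28.0 TPM and 41.5 and 36.2 TPM. The 8 libraries at 3% oxygen, between 32.8 and 41.5 TPM, were thus above all 8 at atmospheric oxygen, between 12.4 and 28.0 TPM, whatever the stage. The differences on the log2(TPM + 0.5) scale were 0.99 (SE 0.116, adjusted p = 0.000218), 1.33 (adjusted p = 5.15e-05), 0.50 (adjusted p = 0.00685) and 0.57 (adjusted p = 0.00469) from the primary to the metastasizing stage. Only that of immortalized cells was over 1 and thus called, with the value in primary cells just outside. The response was smaller in transformed than in immortalized cells by 0.82 (SE 0.163, adjusted p = 0.00335), under the size required of a call.

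Among the steps, CCNE2 differed most from immortalized to transformed cells at atmospheric oxygen (0.95, SE 0.116, adjusted p = 4.28e-05), also under the size required, and at 3% oxygen no step exceeded 0.13 in size. CCNE2 shares 1629 exonic bases with INTS8 on the opposite strand (30.0 to 62.2 TPM). The library kit keeps the strand, but kallisto was run with default parameters, which do not use it, so reads of the overlap cannot be told apart.

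**Figure D3:**
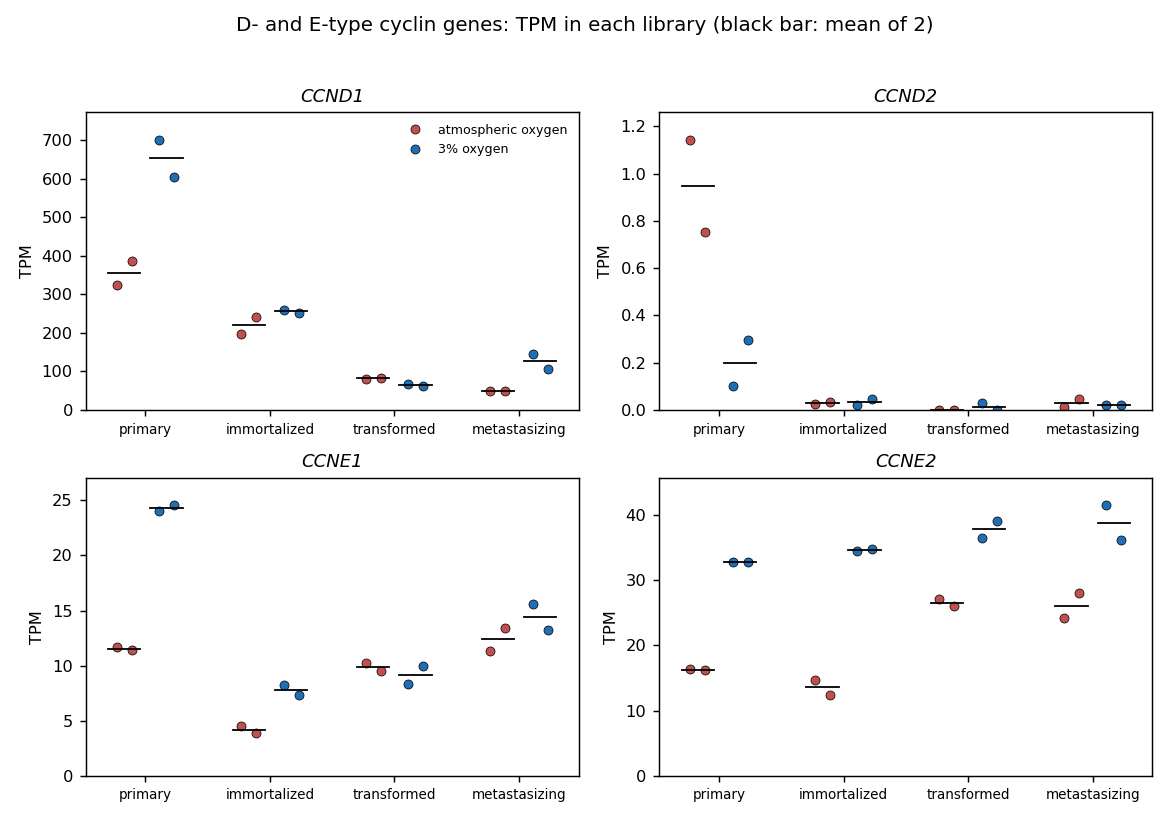
TPM of the 4 cyclin genes in each library, by stage, at atmospheric oxygen (red) and 3% oxygen (blue). Points are libraries and black bars the means of 2. CCND1 ranged from 702 TPM in a primary library to 49.3 TPM in a metastasizing library, and CCNE2 was higher at 3% oxygen in all 4 stages.

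Calls between oxygen levels were counted over the members, beside the share of all genes tested. Of 12184 genes tested in primary cells, 2.78% were called higher and 2.52% lower at 3% oxygen, and of the 9 members tested 1 was called higher (CCNE1) and 2 lower (CDKN1C and CDKN2A). In immortalized cells 2.13% of genes were called higher and 2.78% lower, and 1 of 6 members tested was higher (CCNE2). In transformed cells these shares were 4.9% and 2.58%, and 1 of 9 members was higher (CDKN1C). In metastasizing cells they were 3.06% and 4.6%, and 1 of 8 members was higher (CCND1) and 3 lower (CDKN1B, CDKN2B and CDKN2C). No member was called in the same direction in 2 stages, but CDKN1C was called in opposite directions in 2, the only stages in which it was tested. In this fit of the 8 groups CCNE2 had an adjusted p below 0.01 and the same sign in all 4 while over the size required in 1. With only the 4 libraries of a stage in the fit, no member was called in primary, transformed or metastasizing cells. The median difference over the members tested was 0.08, 0.20, 0.12 and -0.67 in the 4 stages, beside 0.08, 0.11, 0.01 and -0.13 over all genes tested. The share of higher genes among all calls depended on the scaling: from the TPM to median-ratio rescaling it went from 52.5% to 39.1% in primary, from 43.4% to 26.4% in immortalized and from 40.0% to 50.4% in metastasizing cells.

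**Figure D4:**
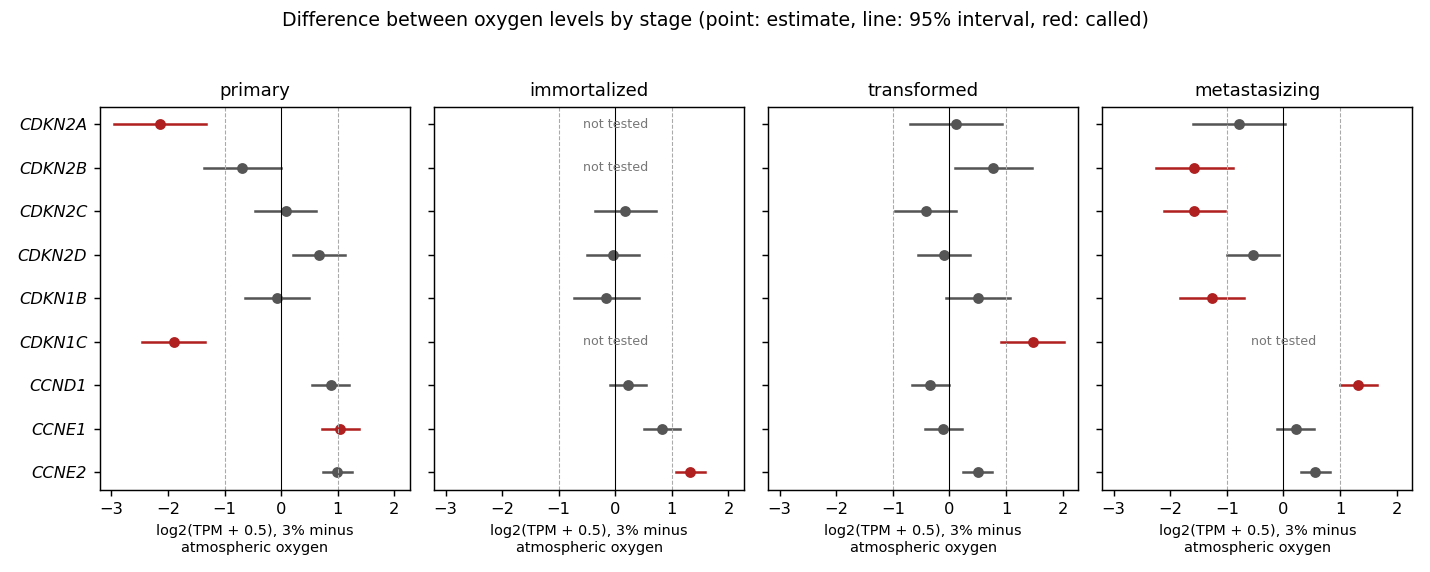
Difference between 3% and atmospheric oxygen on the log2(TPM + 0.5) scale for the 9 members tested in any stage, with 95% intervals. Red marks calls and dashed lines a difference of 1. CCNE2 lay above 0 in all 4 stages, and CDKN1B, CDKN2B and CDKN2C were called lower in metastasizing cells.

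Between successive stages at atmospheric oxygen, 5.98% of genes were called higher and 6.26% lower from primary to immortalized cells, and of the 9 members tested none was higher and 4 were lower (CDKN1C, CDKN2A, CDKN2B and CCNE1). From immortalized to transformed cells 13.2% of genes were higher and 11.2% lower, and of 8 members 3 were higher (CDKN2A, CDKN2B and CCNE1) and 1 lower (CCND1). From transformed to metastasizing cells 2.4% were higher and 1.72% lower, and of 8 members 1 was higher (CDKN2B). Higher genes made up 54.1% of all calls of the second step, and 37.5% after median-ratio rescaling. At 3% oxygen the first step had 4.19% of genes higher and 5.04% lower, and 5 of 8 members lower (CDKN2A, CDKN2B, CDKN2D, CCND1 and CCNE1). The second had 8.96% higher and 7.38% lower, with 3 of 9 members higher (CDKN1C, CDKN2A and CDKN2B) and 1 lower (CCND1). The third had 1.99% higher and 3.93% lower, with 3 of 9 members lower (CDKN1B, CDKN1C and CDKN2C).

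In the first step the members' median was -0.69 at atmospheric oxygen and -1.32 at 3% oxygen, beside -0.09 and -0.06 over all genes tested. In the second it was 0.92 and 0.30, beside 0.22 and 0.11. In the third it was 0.14 and -0.56, beside 0.06 and -0.07. Comparisons of neighbouring steps share the libraries of the stage between them.

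**Figure D5:**
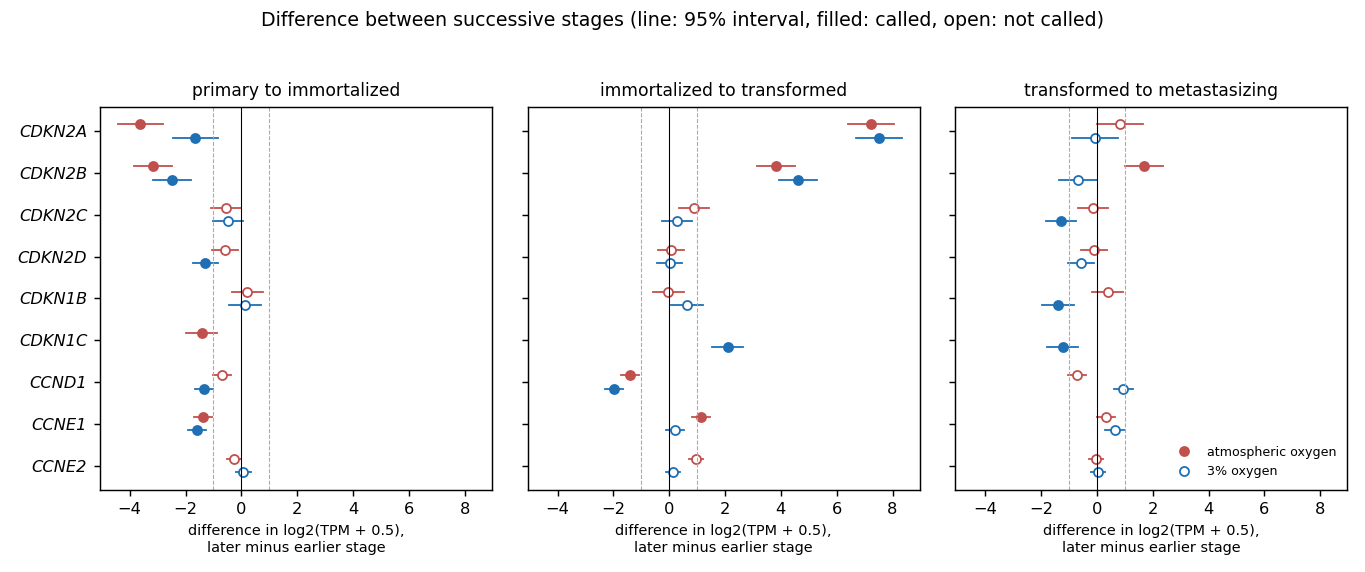
Difference between successive stages on the log2(TPM + 0.5) scale for 9 members, with 95% intervals, at atmospheric oxygen (red) and 3% oxygen (blue). Filled points are calls, open points are not, and members not tested are left out. CDKN2A and CDKN2B moved down in the first step and up in the second at both oxygen levels.

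The responses to oxygen were also compared between stages. From primary to immortalized cells 0.8% of 12632 genes had a response called more positive and 1.06% more negative, and none of 9 members was called in the limma fit. At an unadjusted p below 0.05 there were 4 of the 9 members, beside 22.0% of all genes tested. From immortalized to transformed cells 6.13% were more positive and 5.84% more negative, with 1 of 9 members more positive (CDKN1C). From transformed to metastasizing cells 2.84% were more positive and 5.62% more negative, with 1 of 9 members more positive (CCND1) and 2 more negative (CDKN1B and CDKN2B). The 2 last comparisons share the libraries of the transformed cells. After median-ratio rescaling the more positive genes went from 51.2% to 67.4% of all calls in the former and from 33.6% to 44.1% in the latter.

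Other genes of the G1/S transition were counted from a list of 22, of which 21 were tested (CCNA1, a cyclin of germ cells, was not expressed enough). At 3% oxygen 3 were called higher in primary cells and 3 in immortalized cells, 1 in transformed and 1 in metastasizing cells, and none was called lower in any stage. In primary cells the largest were RBL1, an RB family member (9.15 to 25.3 TPM, difference 1.41, adjusted p = 0.000218), and CDC25A, a phosphatase that activates CDK2 (10.4 to 24.1 TPM, difference 1.17, adjusted p = 0.000884). In immortalized cells they were SKP2, the ubiquitin ligase subunit that marks p27 for degradation (27.3 to 73.3 TPM, difference 1.42, adjusted p = 7.998e-05), and RBL1 (9.92 to 20.8 TPM, difference 1.04, adjusted p = 0.00129). RBL2, another RB family member, was the gene called in transformed cells (26.5 to 59.3 TPM, difference 1.15) and in metastasizing cells (9.48 to 22.8 TPM, difference 1.20).

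Between stages at atmospheric oxygen, 1 of the 21 was called lower from primary to immortalized cells (CCNA2, from 85.1 to 40.2 TPM). Of all genes tested, 5.98% were called higher and 6.26% lower there. From immortalized to transformed cells 9 of the 21 were higher and 2 lower, beside 13.2% and 11.2% of all genes. From transformed to metastasizing cells 2 were higher and 1 lower, beside 2.4% and 1.72%. The largest in the second step were CDKN1A, the inhibitor p21, which fell by 2.49 (from 259 to 45.7 TPM, adjusted p = 9.62e-05), and SKP2, which rose by 2.00 (from 27.3 to 110 TPM, adjusted p = 6.71e-07). CDKN1A rose again in the third step (to 184 TPM, 2.00, adjusted p = 0.00239), in which E2F5, a repressive E2F, was the other higher gene. At 3% oxygen the counts were none for the first step, beside 4.19% of all genes higher and 5.04% lower. For the second 3 were higher, beside 8.96% higher and 7.38% lower. The largest were E2F1 at 1.94 (22.1 to 86.9 TPM, adjusted p = 3.08e-06) and RBL2 at 1.12. For the third 1 was higher (E2F5) and 1 lower (RBL2), beside 1.99% and 3.93%.

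There were 8 markers of proliferating cells (MKI67, TOP2A, PCNA, MCM2, CCNB1, CDK1, BUB1 and AURKB). At 3% oxygen 1 was called higher in primary cells (beside 2.78% of all genes) and 2 in immortalized cells (2.13%), and none later. An adjusted p below 0.01 with a rise under the size required was found for TOP2A, CDK1 and AURKB in primary cells (0.84 to 0.88). The same held for PCNA, CDK1, BUB1 and AURKB in immortalized cells (0.53 to 0.94). The median difference of the 8 markers was 0.67, 0.83, -0.001 and -0.27 in the 4 stages, beside 0.08, 0.11, 0.01 and -0.13 over all genes. Their summed level was 1055 and 1110 TPM in primary cells at atmospheric oxygen and 1510 and 1672 TPM at 3% oxygen, and 668 and 756 TPM against 1298 and 1203 TPM in immortalized cells. In the fit of the 8 groups CCNE2 had an adjusted p below 0.01 for a higher level at 3% oxygen in all 4 stages, and CCNE1 in primary and immortalized cells. With a further term for the plate letter within each stage, the adjusted p of CCNE2 was 0.0381 in transformed and 0.0321 in metastasizing cells. That of CCNE1 was then 0.0111 in primary and 0.0204 in immortalized cells. In transformed cells the sum was 1798 and 1726 TPM against 1966 and 1918 TPM, and in metastasizing cells 1848 and 1926 TPM against 1408 and 1822 TPM. At atmospheric oxygen 4 of the 8 were called higher from immortalized to transformed cells, beside 13.2% of all genes. From primary to immortalized cells 1 was called lower, beside 6.26%. The part of these markers in the differences of the cyclins was not tested.

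For each member that reached a mean of 1 TPM, the genes most like it were sought by Pearson's r of log2(TPM + 0.5) over the 16 libraries, among 13146 protein-coding genes. These values describe the libraries, which share stages and treatments, and carry no p. CDKN2A was most like BEX1 (r = 0.990) and CTSV (r = 0.972), and CDKN2B like AGPAT4 (r = 0.969) and USP6NL (r = 0.969). CDKN2C was most like the collagen gene COL5A2 (r = 0.958) and TINF2, a telomere shelterin gene (r = 0.928), and CDKN2D like HCFC2 (r = 0.913) and FAM110A (r = 0.912). For CDKN1B they were PHF21A (r = 0.904) and GIGYF1 (r = 0.890), and for CDKN1C LRRC2 (r = 0.874) and HERPUD1 (r = 0.858). Among the cyclins, CCND1 was most like ARRDC4 (r = 0.979) and SLC9B2 (r = 0.976), CCNE1 like YWHAG (r = 0.948) and SETD3 (r = 0.938), and CCNE2 like the nuclear transport genes XPO4 (r = 0.945) and NUP58 (r = 0.943).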

How the data were processed

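Total RNA of 16 libraries (4 stages, 2 oxygen levels, 2 duplicate plates each) was sequenced by the authors from a stranded mRNA kit. Per the labels, kallisto 0.42.1 and the GRCh37 build were used, and the deposited table holds TPM of 180253 transcripts, scaled to the same total in each library and without counts, so depth and counting error are unknown. Per the study's methods kallisto was run with default parameters, which do not use the strand. A stray header line was dropped. Transcripts were matched by identifier to GENCODE 44 lifted to GRCh37 (151453 matched, 28800 did not) and TPM was summed per gene. No column belonged to another series.

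Protein-coding genes were tested with limma 3.58.1 in R 4.3.3 on log2(TPM + 0.5), with a coefficient for each of 8 groups and an intensity trend, the spread being moderated over 13146 genes with a mean of 1 TPM or more in any group. Differences between oxygen levels within a stage, between successive stages at each oxygen level, and of oxygen responses between successive stages were taken from the same fit. Genes with a mean of 1 TPM in a group compared were kept, and adjusted p-values (Benjamini-Hochberg, threshold 0.01, with a difference over 1) cover all of them. An exact two-sided permutation test of 2 against 2 libraries cannot go below p = 0.333, so only the fit across genes was used. The steps were tested on simulated data with the same spread in every group (200 changed genes, of which 200 were recovered). The genes changed were above about 5 TPM and differed by 2 or more on the log2 scale in 1 group. Smaller differences, lower levels and pairs of unequal spread were not simulated. Figures were drawn with matplotlib 3.10.9.

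Members and gene lists were chosen with earlier results of these data known. Named are all 10 members, every CDKN2A transcript above 0.1 TPM by level or range, up to 2 of the other G1/S genes per comparison (the largest calls whose libraries did not overlap), TERT and HRAS as checks of the labels, MTAP as a neighbour, and the 2 most alike genes per member. Alternatives were other values added before the logarithm, other filters and scalings, other sets of libraries, genes or transcripts in the fit, no trend, a replicate block, and leaving out each library. The antisense gene CDKN2B-AS1, which shares 593 exonic bases with CDKN2A on the opposite strand, had no matched transcript in the table and was not analysed here. As the strand was not used, its reads in that overlap cannot be told apart from those of CDKN2A.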

Additional observations from a re-analysis of the deposited data

Results flagged for a closer look

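The difference between oxygen responses of successive stages passed the limma test for 4 members and for the p16 transcripts. The response of CDKN1C was 2.29 more positive in transformed than in immortalized cells (log2 scale, adjusted p = 0.000907), with every level at or below about 2 TPM. Between transformed and metastasizing cells the response of CDKN1B was 1.77 more negative (a difference of -1.77, adjusted p = 0.00576), that of CDKN2B 2.36 more negative (a difference of -2.36, adjusted p = 0.00323) and that of CCND1 more positive (1.66, adjusted p = 0.000397). Of 21 alternatives, the CDKN1B call held in 11 (difference -2.33 to -1.21), the CDKN2B call in 14 and the CCND1 call in 20. The CDKN2B call was lost without library b of the transformed cells at atmospheric oxygen (adjusted p = 0.0173) or 3% oxygen (adjusted p = 0.0116), or without library a (adjusted p = 0.0139) or b (adjusted p = 0.0125) of the metastasizing cells at atmospheric oxygen. The p16 transcripts had a response 2.05 more positive in immortalized than in primary cells (adjusted p = 0.00262), where the immortalized libraries held 0.132 TPM or less and so could show no lower level.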

How the results depend on the processing

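Over the 34 member differences called, 608 alternative values were computed. In 527 the call held, in 81 the direction held without the call, and in 0 the direction turned. Under every alternative run, 15 of the 34 stayed called, among them the steps of CDKN2A and CDKN2B from immortalized to transformed cells, the fall of CCND1 there, the fall of CCNE1 from primary to immortalized cells and the rise of CCNE2 in immortalized cells at 3% oxygen. With only the groups compared in the fit, 0 members were called between oxygen levels in primary, transformed or metastasizing cells (main counts 3, 1 and 4), 0 in the step from transformed to metastasizing cells at 3% oxygen (3) and 0 in the difference of their responses (3). With the replicate block the counts were 1 in primary, 0 in transformed and 2 in metastasizing cells and 1 for the difference between the last stages. The letters a and b share only a number: the correlation of same-letter deviations was -0.168 to 0.246 over the comparisons. With the letters crossed the counts were 0 in transformed cells, 2 in metastasizing cells and 1 for the last difference. A filter of 5 TPM left 0 calls in transformed cells at 3% oxygen, 2 and 3 in the first step at atmospheric and 3% oxygen and 0 for the difference between transformed and immortalized cells. That difference had 2 calls after quantile normalization. With protein-coding transcripts only, 0 members were called from transformed to metastasizing cells at atmospheric oxygen, and with array weights (0.241 for the metastasizing libraries at 3% oxygen) 0 at 3% oxygen.

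Without each library in turn, the counts were 2 to 4 in primary, 1 in immortalized, 0 to 1 in transformed and 1 to 4 in metastasizing cells between oxygen levels. They were 3 to 4, 4 to 5 and 0 for the steps at atmospheric oxygen and 3 to 4, 4 and 0 to 5 for those at 3% oxygen. For the differences of responses they were 0 to 1, 1 to 2 and 1 to 4. Calls of the other G1/S genes over the 10 comparisons numbered 28, and 19 to 28 under the alternatives that gave all 10. Over all genes, calls went from 646 to 164 in primary, 916 to 570 in transformed and 941 to 112 in metastasizing cells, from 727 to 0 in the last step at 3% oxygen and from 1066 to 123 in the last difference with only the groups compared, which rose from 235 to 377 in the first difference. Without each library in turn they were 320 to 464 in primary, 270 to 340 in immortalized, 513 to 754 in transformed and 495 to 1450 in metastasizing cells, 256 to 313 (of 503) in the last step at atmospheric oxygen, 738 to 841 (of 1128) in the first and 459 to 1190 in the last step at 3% oxygen, and 74 to 132, 993 to 1456 and 584 to 1698 in the 3 differences, so the shares of all genes called given beside the members move with single libraries. With the replicate block they were 359 in primary, 328 of 592 in immortalized, 541 in metastasizing cells and 5, 887 (of 1522) and 439 in the 3 differences, with array weights 375 in metastasizing cells, 190 in the last step at 3% oxygen and 540 and 686 in the first and last differences, and without both metastasizing libraries at 3% oxygen 484 in the first difference. Array weights, crossed letters and the fit without those libraries were chosen after seeing the data. Median-ratio rescaling moved the median of all genes by -0.23 at most, in the second step at atmospheric oxygen. The cause of these changes was not tested.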
